A study of Homo sapiens with 10 samples.

Results

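The circadian clock genes PER1, PER2, PER3, CRY1, CRY2, NR1D1, NR1D2, BHLHE40, BHLHE41 and DBP were followed in PANC-1 cells, an established human pancreatic carcinoma line. They were taken by gene symbol, and all 10 were found among the 20263 genes listed. One group of 5 libraries came from cells that had received 20 µM LY for 24 h, where LY is lycorine, a plant alkaloid known to inhibit protein synthesis on ribosomes. The other group of 5 libraries came from cells given DMSO, the vehicle. The question set by the series title is how lycorine affects these cells. Values are TPM, an abundance that the authors normalised for transcript length and library total, so levels can be compared between genes. A single time after treatment was sampled and the sources used here name no synchronisation of the cells, so phase and amplitude of a rhythm were not measured.

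The mammalian clock is a feedback loop of transcription. The activators CLOCK or NPAS2 pair with BMAL1 or BMAL2 and bind E-box elements in the genes of their own repressors, the period (PER) and cryptochrome (CRY) proteins. A second loop runs through the nuclear receptors REV-ERB alpha and beta (genes NR1D1 and NR1D2), which repress BMAL1 through elements they share with the activating ROR receptors. DEC1 and DEC2 (BHLHE40 and BHLHE41) compete for E-boxes, and DBP is an output factor that activates genes through D-box elements, which include PER genes.

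Promoter windows in RefSeq (GRCh38.p14, 250 bases before to 50 after a gene's start, 300 in all) were found for all 10 genes, and motifs were searched on both strands. The E-box CACGTG occurred in 4 of the 10 genes (PER1, NR1D2, BHLHE40 and BHLHE41), against 8.77% of the 27305 genes searched. Some windows of other genes were left out of the search. The variant CACGTT occurred in another 4 (PER2, CRY1, CRY2 and NR1D1), against 6.44% of the genes searched. The D-box, searched as TTATGTAA or TTACGTAA, occurred in 3 (PER2, PER3 and NR1D2), against 1.27%. These are matches of letters, not measured binding, and several genes have more than 1 window. The following sites, with the motif in capitals, are elements of the kinds named above in genes that differed in their response.
PER1 E-box (chr17:8152560-8152589, minus strand): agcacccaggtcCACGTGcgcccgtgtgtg
NR1D2 E-box (chr3:23945954-23945983, plus strand): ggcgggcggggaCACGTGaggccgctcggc
NR1D2 second E-box (chr3:23946004-23946033, plus strand): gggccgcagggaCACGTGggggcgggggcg
BHLHE41 E-box (chr12:26125068-26125097, minus strand): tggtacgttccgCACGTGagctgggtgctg
CRY1 E-box variant (chr12:107093621-107093650, minus strand): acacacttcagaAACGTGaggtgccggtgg
NR1D1 E-box variant (chr17:40100740-40100769, minus strand): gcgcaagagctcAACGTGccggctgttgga
PER3 D-box (chr1:7784103-7784132, plus strand): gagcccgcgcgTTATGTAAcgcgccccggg
PER2 D-box (chr2:238288595-238288624, minus strand): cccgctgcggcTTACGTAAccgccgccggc
The PER3 motif itself began 177 bases upstream of the RefSeq start and the CRY1 motif 89 bases upstream. The window of DBP held none of these letters.

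LY-treated cells held more CRY1, NR1D1, NR1D2, BHLHE40 and BHLHE41 transcript and less DBP and PER3, while PER1, PER2 and CRY2 did not pass the test. CRY1 had the largest rise (log2 fold change 2.01 ± 0.094 SE) and DBP the largest fall (-2.61 ± 0.20). In the limma fit over 11663 tested genes, at a Benjamini-Hochberg adjusted p under 0.05, 7 of the 10 clock genes changed, 5 up and 2 down. Among all tested genes 64.6% changed, 39.8% up and 24.9% down, so 7 of 10 is close to the share over all tested genes. A change of at least 2-fold was seen in 5 of the 10, against 22.1% of all tested genes. With upper-quartile scaling 3 of the 10 reached 2-fold, because NR1D2 (0.76) and BHLHE41 (0.95) then lay under it, and quantile normalization gave 3 as well (20.8% and 20.2% of all tested genes). In bulk RNA, fewer cells of a kind and less RNA per cell cannot be told apart.

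The calls of PER1, PER2 and CRY2 varied with the scaling between libraries. Those of PER1 and CRY2 also varied with 1 control library, and that of CRY2 with LY-5. Over all tested genes the median log2 fold change was 0.17 as deposited. With median-ratio scaling, which brought that median to 0.012, all 10 clock genes changed, 5 up and 5 down, against 66.2% of all tested genes. Upper-quartile scaling gave the same split, against 66.1%. With quantile normalization the 3 genes did not pass (adjusted p = 0.244 for PER1, 0.737 for PER2 and 0.0612 for CRY2, limma), and 5 up and 2 down were called, against 66.4%. One control library, NC-2, held 37.5% of its TPM in mitochondrially encoded genes, against 12.2% to 14.1% in the other controls and 6.43% to 14.9% in LY. Without NC-2, and with no rescaling, the counts were 5 up and 4 down, against 69.9% of the genes then tested. Of the markers checked, KRT8, KRT18, VIM and SOX9 were expressed in every library, KRT7 was at most 0.303 TPM, and all 4 endocrine markers and 4 of 5 acinar markers were listed at 0. Some markers moved with treatment: KRT19 ran from 15.8 to 24.6 TPM in LY and 123 to 166 TPM in DMSO. The summed leukocyte markers were 131 to 232 TPM in LY and 34.5 to 47.3 TPM in DMSO with CD3E at 0. The summed fibroblast markers were 27.7 to 37.8 TPM in LY and 69.2 to 115 TPM in DMSO with LUM at 0. The endothelial sum was 2.74 to 3.32 TPM in LY and 0.0988 to 0.535 TPM in DMSO with PECAM1 at 0. The part of these differences, and of the mitochondrial share, in the clock gene values was not tested beyond the counts given here.

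**Figure D1:**
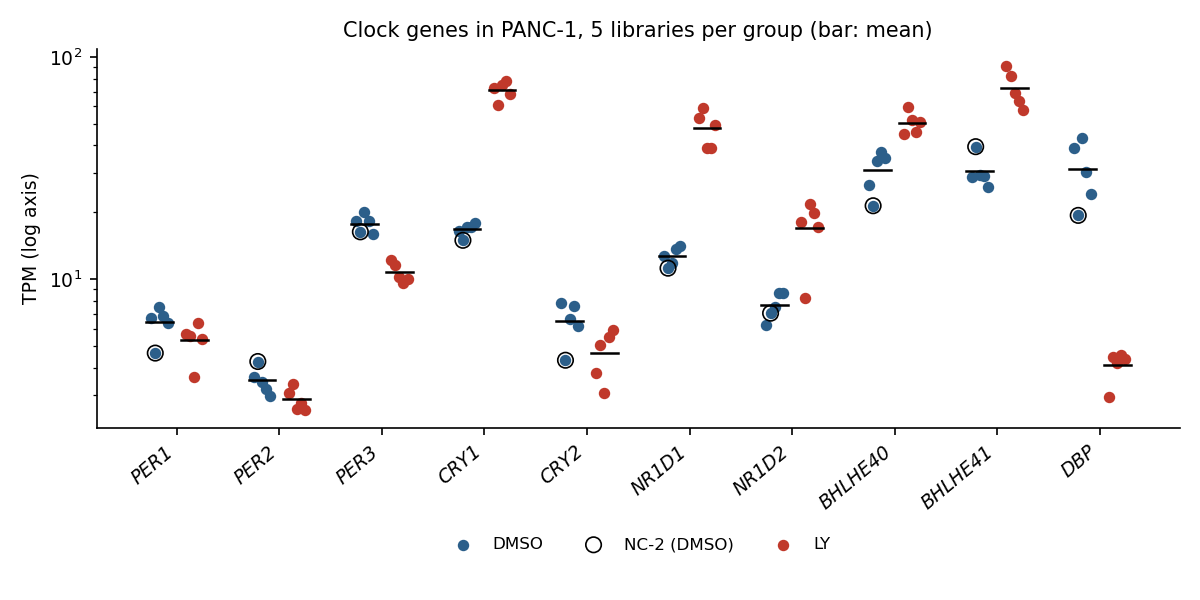
TPM of the 10 clock genes in each of the 5 DMSO (blue) and 5 LY (red) libraries on a log axis, with the group mean as a bar and control NC-2 circled. CRY1, NR1D1, BHLHE40 and BHLHE41 lay higher in all 5 LY libraries than in any control, DBP and PER3 lower, and PER1, PER2, CRY2 and NR1D2 overlapped.

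The cryptochromes, relatives of the photolyases, repress CLOCK and BMAL1, and they responded differently. CRY1 (ENSG00000008405, chromosome 12, 106991364 to 107093829 on hg38) measured 72.8, 60.8, 74.6, 77.7 and 68.3 TPM in LY-1 to LY-5, and 16.4, 14.97, 17.3, 17.1 and 18.0 TPM in NC-1 to NC-5. The lowest LY library was more than 3 times the highest control, and the spread within each group was small. The means were 70.8 ± 6.56 (SD, n = 5) and 16.7 ± 1.14 TPM (limma adjusted p = 1.49e-08). This fold change was larger in size than that of 97.1% of all tested genes.

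CRY2 (ENSG00000121671, chromosome 11, 45847118 to 45883248) measured 3.79, 5.07, 3.07, 5.49 and 5.90 TPM in LY and 7.78, 4.32, 6.63, 7.60 and 6.19 TPM in the controls. The groups overlapped because NC-2 (4.32 TPM) lay among the LY values. The log2 fold change was -0.41 ± 0.18 (limma adjusted p = 0.0606), and without NC-2 it was -0.53 (adjusted p = 0.0113). Without LY-5 it was -0.49 (limma adjusted p = 0.0384). Within a library CRY1 exceeded CRY2 by a factor of 2.11 to 3.47 in DMSO and 11.6 to 24.3 in LY.

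The 3 period genes, whose proteins carry the cryptochromes into the repressor complex, did not respond alike. PER3 (ENSG00000049246, chromosome 1, 7784320 to 7845177) was the most abundant of them, with 12.2, 11.6, 10.3, 9.60 and 10.001 TPM in LY and 18.4, 16.3, 20.0, 18.4 and 15.9 TPM in the controls. Every LY value was under every control value, and the log2 fold change was -0.68 ± 0.10 (limma adjusted p = 0.000107). It shares 868 exonic bases, 10.7% of its own, with the opposite-strand gene UTS2, which was at 0 TPM in all controls and averaged 0.0384 TPM in LY.

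PER1 (ENSG00000179094, chromosome 17, 8140472 to 8156506), known as an early responder to hormones and cAMP, measured 5.69, 5.55, 3.65, 6.35 and 5.38 TPM in LY and 6.67, 4.65, 7.49, 6.85 and 6.38 TPM in the controls. The lowest control was again NC-2, and the groups overlapped. The log2 fold change was -0.23 ± 0.15 with a 95% interval from -0.55 to 0.089 (limma adjusted p = 0.184). Without NC-2 it was -0.33 (adjusted p = 0.0434).

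PER2 (ENSG00000132326, chromosome 2, 238244038 to 238290102) was the lowest of the 10 in both groups, with 3.07, 3.36, 2.62, 2.78 and 2.57 TPM in LY and 3.63, 4.26, 3.45, 3.22 and 2.98 TPM in the controls. Here NC-2 was the highest control rather than the lowest. The log2 fold change was -0.21 ± 0.11, with an interval from -0.45 to 0.019 (limma adjusted p = 0.0973). Without NC-2 it was -0.16 and still did not pass (limma adjusted p = 0.178). PER1, PER2 and CRY2 passed, downward, with median-ratio scaling (adjusted p = 0.0221, 0.0409 and 0.00744).

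Both REV-ERB genes rose. NR1D1 (ENSG00000126368, chromosome 17, 40092787 to 40100725) measured 53.1, 59.3, 38.9, 39.0 and 49.5 TPM in LY and 12.7, 11.2, 11.8, 13.6 and 14.04 TPM in the controls. The groups were far apart, and the log2 fold change was 1.82 ± 0.13 (limma adjusted p = 2.76e-07). NR1D1 shares 263 exonic bases, 9.49% of its own, with THRA, the thyroid hormone receptor alpha gene on the opposite strand. THRA went the other way, from 37.3 ± 4.26 TPM in DMSO to 6.72 ± 1.78 in LY (log2 fold change -2.33 ± 0.16, adjusted p = 1.80e-07). Whether the counting used strand is not given in the sources used here, so reads from the shared bases may have gone to either gene.

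NR1D2 (ENSG00000174738, chromosome 3, 23945260 to 23980618) measured 18.1, 8.19, 21.7, 19.9 and 17.1 TPM in LY and 6.25, 7.03, 7.54, 8.64 and 8.70 TPM in the controls. Library LY-2 stood within the control range, whereas the other 4 LY libraries were near 2 times the highest control or above. LY-2 was at the same time the highest LY library for NR1D1 and for BHLHE40. The log2 fold change was 1.01 ± 0.22 (limma adjusted p = 0.00151), 1.23 without LY-2, and by an exact Wilcoxon test the call was lost (adjusted p = 0.0523).

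The DEC genes also rose together. BHLHE40 (ENSG00000134107, chromosome 3, 4979116 to 4985323), also known as a hypoxia- and stress-responsive gene, measured 44.9, 59.8, 52.0, 46.2 and 50.8 TPM in LY and 26.4, 21.4, 34.0, 37.3 and 35.3 TPM in the controls. The groups did not overlap, with a gap from 37.3 to 44.9 TPM, and the log2 fold change was 0.72 ± 0.15 (limma adjusted p = 0.00126). With upper-quartile scaling it was 0.45 (adjusted p = 0.00585).

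BHLHE41 (ENSG00000123095, chromosome 12, 26120026 to 26125127), linked to sleep duration in humans, measured 90.8, 82.2, 68.8, 63.4 and 57.95 TPM in LY and 28.8, 39.5, 29.3, 29.1 and 26.1 TPM in the controls. NC-2 was the high control, and all LY values lay above it. The log2 fold change was 1.22 ± 0.14 (limma adjusted p = 1.51e-05). It shares 162 exonic bases, 4.10% of its own, with the opposite-strand gene SSPN, which did not pass (0.13 ± 0.12, adjusted p = 0.364).

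DBP (ENSG00000105516, chromosome 19, 48630030 to 48637438) fell from the highest mean of the 10 genes in DMSO to the second lowest in LY. It measured 2.97, 4.47, 4.19, 4.54 and 4.36 TPM in LY and 39.1, 19.4, 43.1, 30.3 and 24.1 TPM in the controls. The controls spread over more than 2-fold, with NC-2 lowest, yet the lowest of them was over 4 times the highest LY library. The means were 4.10 ± 0.650 and 31.2 ± 9.96 TPM (limma adjusted p = 4.64e-07), and the fold change exceeded that of 99.1% of tested genes in size. DBP shares 661 exonic bases, 10.1% of its own, with SPHK2, a sphingosine kinase gene on the opposite strand, which rose from 19.0 ± 3.79 to 31.3 ± 4.58 TPM (0.71 ± 0.15, adjusted p = 0.00128).

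**Figure D2:**
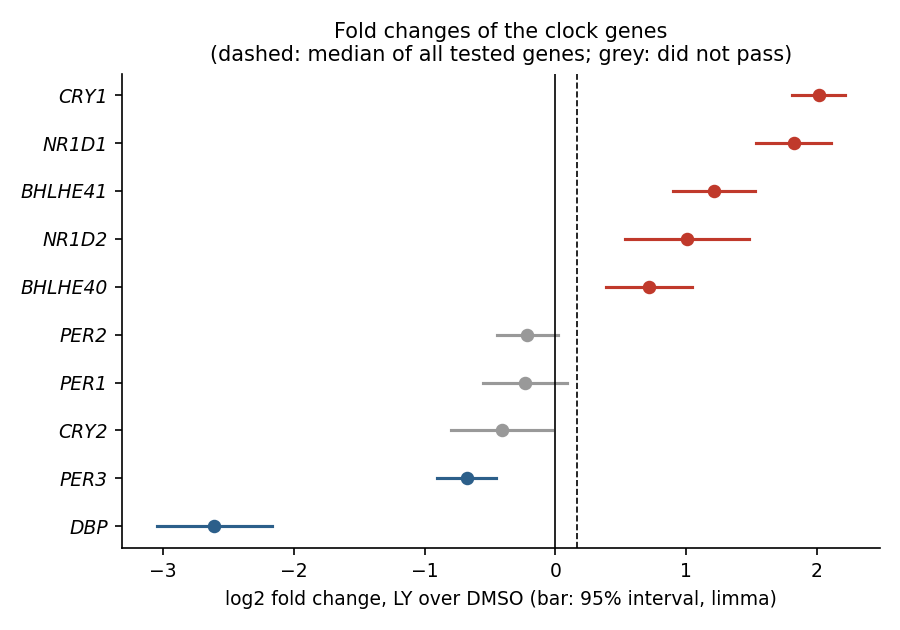
Log2 fold change, LY over DMSO, of each clock gene with its 95% interval from limma (red rose, blue fell, grey did not pass), with the median of all tested genes (0.17) as a dashed line. DBP at -2.61 and CRY1 at 2.01 stand at the ends, and the intervals of PER1 and PER2 include 0.

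Groups did not overlap in 6 of the 10 genes, 4 higher and 2 lower in LY, against 49.4% of all tested genes (32.7% higher and 16.7% lower). In DMSO the mean levels ran from DBP, BHLHE40 and BHLHE41 (30.6 to 31.2 TPM) through PER3 and CRY1 (17.8 and 16.7 TPM), NR1D1 (12.7 TPM), NR1D2, CRY2 and PER1 (7.63, 6.504 and 6.41 TPM) to PER2 (3.51 TPM). Within each of these groupings the library values of neighbours overlapped. Between them they did not, except that DBP in NC-2 (19.4 TPM) lay under PER3 in NC-3 (20.04 TPM). In LY, BHLHE41 and CRY1 (72.6 and 70.8 TPM) came first and overlapped, followed by BHLHE40 and NR1D1 (50.8 and 48.0 TPM), which overlapped each other and the lower values of BHLHE41. NR1D2 (17.02 TPM) and PER3 (10.8 TPM) overlapped next, and PER1, CRY2, DBP and PER2 (5.32, 4.66, 4.10 and 2.88 TPM) formed a low group in which each overlapped its neighbour.

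To ask whether paralogs responded differently, the difference of their log2(TPM + 1) was taken within each library and compared between groups by a two-sided exact permutation test (252 assignments, smallest possible p 0.00794), adjusted over 6 pairs. CRY1 less CRY2 went from 1.26 ± 0.24 in DMSO to 3.69 ± 0.39 in LY (SD, n = 5 each; difference 2.43 ± 0.20 SE, exact permutation adjusted p = 0.0238). This was the pair with the widest divergence, and all 5 LY libraries lay above all 5 controls. PER3 was lower in LY relative to PER1 (difference 0.45 ± 0.14, exact permutation adjusted p = 0.0238) and relative to PER2 (0.46 ± 0.099, adjusted p = 0.0238, exact permutation). PER1 less PER3 overlapped between the groups (-1.28 to -0.53 in LY, -1.62 to -1.20 in DMSO), and PER2 less PER3 did not. With a pseudocount of 0.1 both calls were lost (exact permutation adjusted p = 0.0595). PER1 and PER2 gave a difference of -0.018 ± 0.19 (exact permutation adjusted p = 0.905).

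NR1D1 rose more than NR1D2 (difference 0.82 ± 0.34, exact permutation adjusted p = 0.0238). Without LY-2 the difference was smaller, 0.51, and the call held (exact permutation adjusted p = 0.0357). Leaving out NC-2, NC-3, NC-4 or NC-5 hardly moved the difference (0.80 to 0.81). The call was then lost, in tests with fewer possible assignments (exact permutation adjusted p from 0.0571 to 0.0714). BHLHE40 less BHLHE41 differed by -0.50 ± 0.27 (exact permutation adjusted p = 0.133). Without NC-2, in which BHLHE41 was high and BHLHE40 low, it was -0.71 (exact permutation adjusted p = 0.0159).

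**Figure D3:**
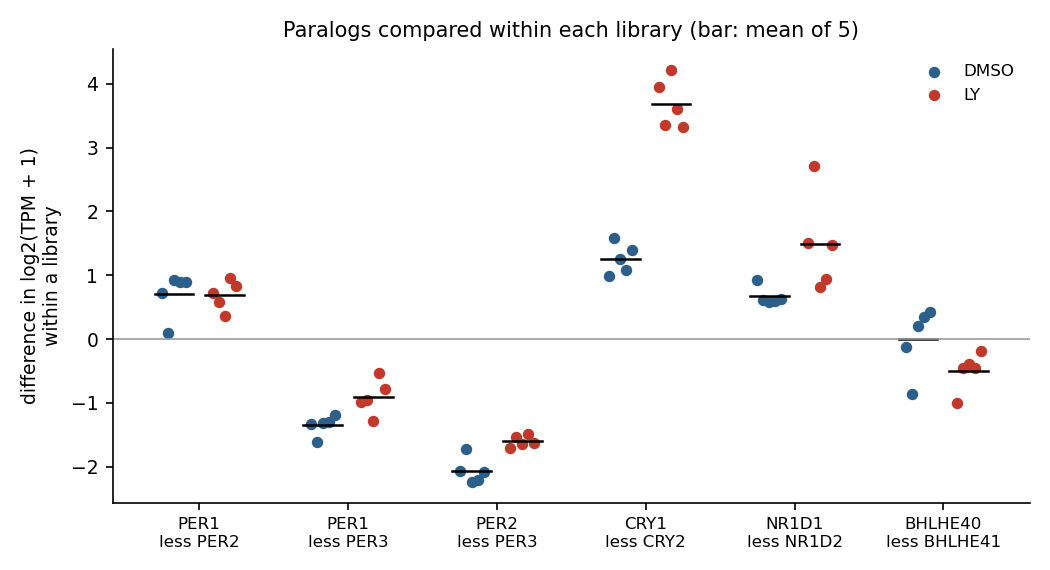
Difference in log2(TPM + 1) between 2 paralogs within each library, for 6 pairs, in DMSO (blue) and LY (red), with the mean of 5 libraries as a bar. CRY1 less CRY2 separates the groups fully (0.99 to 1.59 against 3.33 to 4.22), and PER1 less PER2 has nearly the same mean in both (0.71 and 0.69).

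The activators, which are not among the 10, showed no common direction. NPAS2, the CLOCK paralog, was by far the most abundant, with 162, 174, 107, 149 and 182 TPM in LY and 217, 190, 233, 227 and 180 TPM in the controls. It fell (log2 fold change -0.45 ± 0.15, limma adjusted p = 0.0167), with LY-5 above the lowest control. CLOCK itself averaged 12.5 ± 1.92 TPM in LY and 8.35 ± 1.21 in DMSO (0.53 ± 0.13, adjusted p = 0.00328), a call that was lost with median-ratio scaling (0.37, adjusted p = 0.0552) and upper-quartile scaling (0.28, adjusted p = 0.138). The ratio of NPAS2 to CLOCK ran from 18.7 to 29.01 in DMSO and from 8.86 to 18.2 in LY.

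BMAL1, the shared partner and a known REV-ERB target, measured 8.15 ± 0.885 TPM in LY and 6.59 ± 0.915 in DMSO and did not pass (0.27 ± 0.11, limma adjusted p = 0.0517). It passed under 5 of 22 alternatives, among them quantile normalization (0.30, limma adjusted p = 0.0337), and was 0.035 with upper-quartile scaling (adjusted p = 0.796). The BMAL1 window holds TAGGTCA, the letters of a shared REV-ERB and ROR element found in 2.29% of the genes searched and, among the 10, in CRY2.
BMAL1 element (chr11:13277809-13277838, plus strand): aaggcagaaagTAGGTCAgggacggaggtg
BMAL2, the paralog of BMAL1, rose from 1.45 ± 0.278 to 4.11 ± 0.650 TPM (1.06 ± 0.12, adjusted p = 1.32e-05), with no overlap. Of the ROR receptors, RORA reached at most 0.139 TPM, and RORB was listed at 0 in all 10 libraries.

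Among D-box factors, TEF, a DBP paralog, fell from 6.97 ± 1.79 to 3.10 ± 0.251 TPM (-0.93 ± 0.16, limma adjusted p = 0.00032), and every LY library (2.86 to 3.49 TPM) lay under the lowest control (NC-2, 3.997 TPM). The third paralog, HLF, was at most 0.254 TPM. NFIL3, which binds the same element as a repressor, did not pass (14.6 ± 2.81 against 12.0 ± 2.47 TPM, 0.27 ± 0.15, adjusted p = 0.142). Set side by side, DBP was 1.54 to 4.60 times NFIL3 in the controls, whereas in LY NFIL3 was 2.76 to 5.16 times DBP. PER3, whose window holds the D-box shown above, fell as well. PER2 holds one and did not pass, and NR1D2 holds one and rose.

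**Figure D4:**
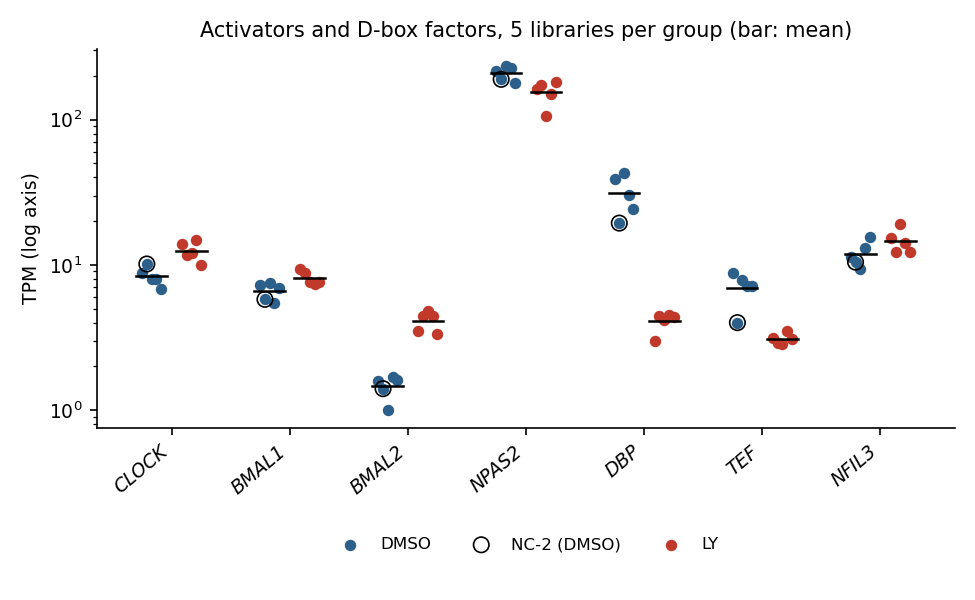
TPM of the activators CLOCK, BMAL1, BMAL2 and NPAS2 and of the D-box factors DBP, TEF and NFIL3 in each library on a log axis (DMSO blue, LY red, bar for the mean, NC-2 circled). DBP lies above NFIL3 in all 5 controls and under it in all 5 LY libraries.

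Of 41 further genes of the clock pathway, 40 were found in the table and 35 were tested: 21 rose, 7 fell and 7 did not pass, which is 80% changed against 64.6% of all tested genes. Their median log2 fold change was 0.53, or 0.37 above that of all tested genes. With median-ratio scaling 17 rose and 8 fell, 71.4% against 66.2% of all tested genes. Of those named below, CIART and PRKAA2 had control means under 1 TPM and entered the test through their LY values, and KLF9 through its controls. CSNK2A1, CSNK2B, BTRC, NCOR1, HDAC3 and WDR5 were named after their values were seen.

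Kinases that phosphorylate PER and CRY proteins rose in 8 of 9 cases, against 39.8% of all tested genes, and the casein kinase subunit CSNK2B did not pass. The call of CSNK2A1 (0.30) was lost with median-ratio, quantile and upper-quartile scaling (0.13, 0.020 and 0.028). The AMP-activated kinase subunits, known to mark CRY1 for degradation, had the largest changes. PRKAA1 went from 33.2 ± 3.71 to 68.0 ± 8.67 TPM (1.01 ± 0.11) and PRKAA2 from 0.864 ± 0.127 to 2.66 ± 0.358 TPM (0.97 ± 0.10). The log2(TPM + 1) scale understates the change of PRKAA2. With a pseudocount of 0.1 the values were 1.03 for PRKAA1 and 1.52 for PRKAA2. FBXW11, a ubiquitin ligase adaptor for PER proteins, rose by 0.58 ± 0.17, a call lost with quantile (0.31) and upper-quartile scaling (0.31). Its paralog BTRC did not pass.

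Among 9 partners and co-repressors, 6 rose, 2 fell and 1 did not pass. Changed genes were 88.9% of them, against 64.6% of all tested genes (39.8% up and 24.9% down). The call of NCOR1, which rose (0.53), was lost in 5 of 22 alternatives, among them median-ratio, quantile and upper-quartile scaling. The call of HDAC3, which fell (-0.55), was lost by the exact Wilcoxon test alone. SIRT1, a deacetylase that acts on PER2 and BMAL1, rose from 16.1 ± 2.51 to 47.2 ± 5.23 TPM (1.497 ± 0.12). CIART, a repressor of CLOCK and BMAL1, rose from 0.248 ± 0.102 to 2.46 ± 0.475 TPM (1.46 ± 0.11 on the log2(TPM + 1) scale, which understates the change of so low a gene). TIMELESS, known in human cells mainly for its role at the replication fork, fell from 35.4 ± 5.48 to 13.9 ± 1.67 TPM (-1.28 ± 0.13).

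Of 9 output genes 8 were tested, and 3 rose, 3 fell and 2 did not pass. That is 75% changed, against 64.6% of all tested genes (39.8% up and 24.9% down). NOCT, the NADPH phosphatase nocturnin, rose from 8.16 ± 1.79 to 36.8 ± 3.83 TPM (2.06 ± 0.14). KLF9, a transcription factor under clock and glucocorticoid control, fell from 6.01 ± 1.68 to 0.949 ± 0.187 TPM (-1.82 ± 0.16). With a pseudocount of 0.1 the KLF9 value was -2.51. Another output that fell, under 1 TPM in every LY library, likewise entered the test through its controls. Outputs thus moved both ways, as did the tested genes as a whole.

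**Figure D5:**
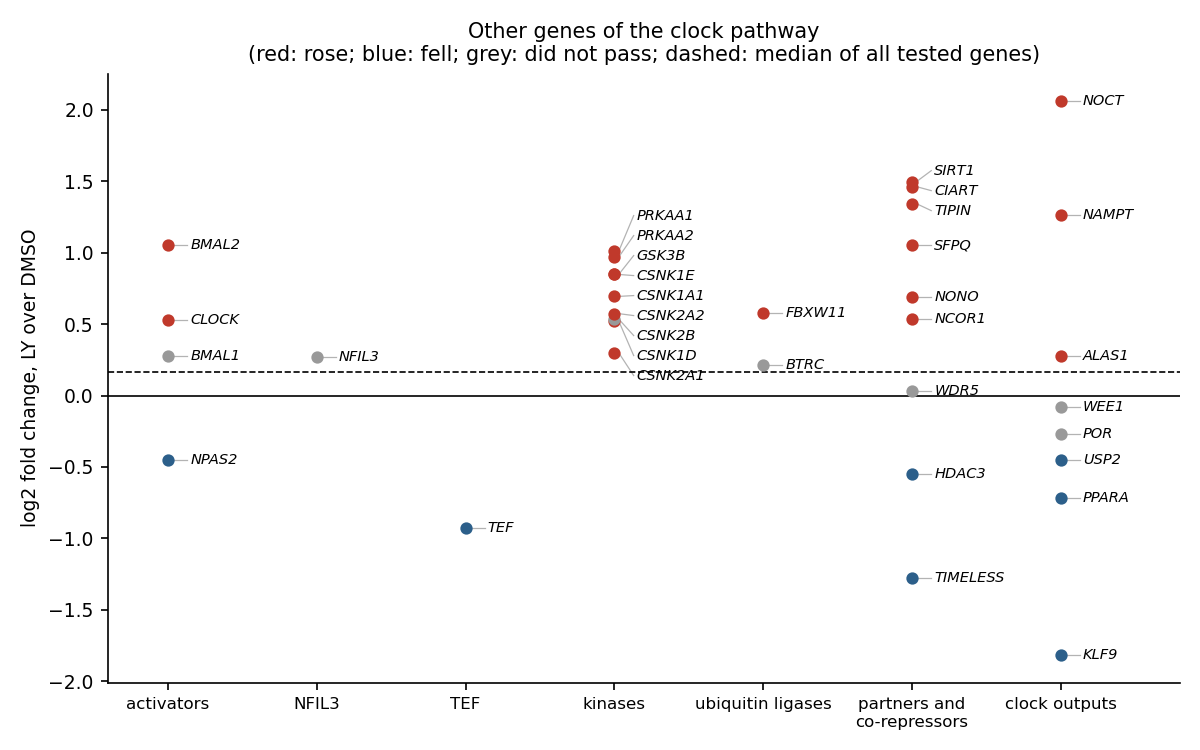
Log2 fold changes, LY over DMSO, of tested genes of the clock pathway outside the 10, by role (red rose, blue fell, grey did not pass; dashed line, median of all tested genes at 0.17). The kinases all lie above the dashed line, and the outputs spread from -1.82 (KLF9) to 2.06 (NOCT).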

How the data were processed

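RNA sequencing of PANC-1 cells gave 10 libraries, 5 LY and 5 DMSO per the labels (the series text speaks of 4 per group). The 5 columns headed NC match no sample title and were taken as the DMSO group. For RNA isolation the series text names Trizol, and the labels name a column kit. The deposited values are TPM, computed by the authors; for the aligner, counter, annotation and strand setting, no tool or setting is stated in the labels or the file header, and hg38 is listed beside mouse builds per the submitters' processing notes. TPM keeps no read totals, so depth is unknown and no counting interval is given. Symbols for 20148 of 20263 gene IDs came from a name table, and positions and overlaps from GENCODE 29. FBXL21 was not matched.

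A gene was tested where 5 or more libraries reached 1 TPM (11663, all 10 clock genes included) with limma 3.58.1 in R 4.3.3 on log2(TPM + 1), with group as the only term, trend moderation and Benjamini-Hochberg adjustment over all tested genes. The fit was tested on simulated data. Alternatives were other pseudocounts, filters, scalings, moderation and single libraries left out, besides a rank test (exact Wilcoxon). Differences between paralogs used exact permutation tests. Whether a group's libraries are separate cultures is not stated, so p-values measure only the spread between these samples. The 10 genes, the pathway lists and the tests were chosen with earlier results of these data known. Some genes are not reported here. Named pathway genes are otherwise all activators, ROR receptors and D-box factors, and in every other list the 2 changed genes with the largest change and the largest change the opposite way. Genes overlapping a clock gene were named by position.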

Additional observations from a re-analysis of the deposited data

Results flagged for a closer look

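Some single libraries lay far from the rest of their group by Dixon's ratio (above 0.71 for 5 samples), which chance gives in about 1 of 20 groups. Many groups were examined and only those above the limit are listed, so some of these may be chance. In control NC-2, BHLHE41 was 39.5 TPM against 26.1 to 29.3 in the other controls, PRKAA1 was 39.7 TPM against 30.4 to 32.7, and TIMELESS was 25.8 TPM against 35.6 to 38.9. NC-2 also gave a PER1 less PER2 difference of 0.10, against 0.73 to 0.93. LY-1 held 2.97 TPM of DBP, against 4.19 to 4.54 in the other LY libraries. NC-1 had an NR1D1 less NR1D2 difference of 0.92, against 0.59 to 0.63. HLF was 0.0191 TPM in NC-3 and listed at 0 in the other controls. With the rest at 0, any value above 0 exceeds the limit, so the ratio carries no weight for HLF.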

How the results depend on the processing

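Of the 7 changed clock genes, 6 kept their direction and call under all 22 alternatives each, and NR1D2 lost its call by the exact Wilcoxon test alone. CRY1 ran from 1.75 to 2.07, NR1D1 from 1.57 to 1.90, DBP from -2.87 to -2.48 and PER3 from -0.93 to -0.64. The count of changed clock genes was 6 to 10, and 9 (5 up, 4 down) both after removal of mitochondrial genes and without NC-2 with median-ratio scaling (65.9% and 70% of all genes tested); these 2 alternatives were chosen after seeing the data. Over all tested genes the split was 4639 up and 2899 down as deposited, 3853 and 3863 with median-ratio and 3336 and 4379 with upper-quartile scaling. WDR5 turned from 0.031 to -0.25 (quantile normalization) and -0.24 (upper-quartile scaling). With a pseudocount of 0.1 the adjusted p was 0.0595 for PER1 less PER3 (0.45), PER2 less PER3 (0.45) and NR1D1 less NR1D2 (0.81). Leaving out 1 library gave 0.51 to 0.99 for NR1D1 less NR1D2 and -0.71 to -0.37 for BHLHE40 less BHLHE41. The cause was not tested. A minimum of 5 TPM removed PER2. No paired analysis was possible because the control columns carry numbers that no label ties to samples.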
